A study of Mus musculus with 11 samples.

Results

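The genes described here are the mouse glutathione transferases and glutathione peroxidases, with the enzymes that make, reduce and break down glutathione. They were taken by name among protein-coding genes of the deposited comparison tables. Taken were the transferases of the alpha, mu, pi, theta, kappa, omega and zeta classes, the microsomal transferases (Mgst), the peroxidases (Gpx), and Gclc, Gclm, Gss, Gsr and Ggt5. This gave 33 genes of 25509 in those tables. Genes held by the count table alone were not taken. Of the 33, 32 had enough counts to be tested, 30 had a count in each of the 11 libraries, and 29 averaged at least 10 CPM (read counts scaled to library size) in some group. RNA was sequenced from adrenal cells of 6 male Nestin-GFP mice (strain Nes-GFP), a reporter line in which green fluorescent protein marks cells that use the gene of the intermediate filament Nestin. Cortex and medulla were dissected apart, pooled from 2 mice each in 3 pools, digested, and sorted by GFP. The 4 groups were cortex GFP-positive (3 libraries), cortex GFP-negative (3), medulla GFP-positive (3) and medulla GFP-negative (2). In both cortex groups libraries 1 and 2 came from mice of about 3.5 months and library 3 from mice of about 2.5 months. Mice of the older age gave 1 medulla GFP-positive library (number 1) and both medulla GFP-negative ones, and the younger mice gave medulla GFP-positive libraries 2 and 3. All groups carried the reporter, and the labels name no treatment. The 11 libraries came from these 6 mice, so some of them share animals. The labels tie no library to a pool, so which ones do is not known. If each pool held mice of 1 age, the ages place libraries of the same group in 1 pool. These are medulla GFP-positive 2 and 3, or libraries 1 and 2 of each cortex group and both medulla GFP-negative ones. The p-values measure the spread between the 11 libraries, which may be partly technical.

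Glutathione is a small peptide thiol that cells hold as their main soluble antioxidant. Glutamate-cysteine ligase, made of the catalytic subunit Gclc and the modifier subunit Gclm, carries out the rate-limiting step of its synthesis, Gss completes it, and Gsr restores the oxidised form with NADPH. Peroxidases spend glutathione on hydrogen peroxide and lipid peroxides, and transferases join it to reactive lipids, drugs and other electrophiles. Steroid-making cells of the adrenal cortex run cytochrome P450 reactions in mitochondria and on the endoplasmic reticulum, which leak oxygen radicals, while chromaffin cells of the medulla make catecholamines.

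Many genes of this pathway are known targets of the transcription factor Nrf2, which binds the antioxidant response element. Promoter windows of 250 bases before to 50 after the start site were available from RefSeq (build GRCm38.p6) for 28 of the 33 genes. The core of that element, TGACNNNGC on either strand, was found in the windows of 5 of the 28 genes (17.9%), namely Gclm, Gsta3, Gstm5, Gstm7 and Mgst1, against 14.0% of all 27025 genes with a window. The recognition sequence CAAGGTCA of steroidogenic factor 1, searched on both strands, was found in none of the 28 genes, against 1.8% of all genes. A match is a description of the letters and not a shown binding site. Gclm and Gsta3 are printed because the core lies upstream of their first exon, and Mgst2 because its level differed most between the sort gates; all 3 are the 250 bases before the RefSeq start on the plus strand, 5′ to 3′, with the core in capitals. The windows are chr3:122245307-122245556 for Gclm, chr1:21240335-21240584 for Gsta3 and chr3:51660929-51661178 for Mgst2. The core of Gclm begins at position -134 from the start site and is on the minus strand, and that of Gsta3 begins at -121 on the plus strand. No core was found in the Mgst2 window, which lies inside the span the deposited files give for the gene.
Gclm: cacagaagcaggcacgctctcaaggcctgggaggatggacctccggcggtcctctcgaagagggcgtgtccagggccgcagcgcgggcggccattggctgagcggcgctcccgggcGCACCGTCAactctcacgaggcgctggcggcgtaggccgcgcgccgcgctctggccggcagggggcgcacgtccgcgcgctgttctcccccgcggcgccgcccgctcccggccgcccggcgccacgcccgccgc
Gsta3: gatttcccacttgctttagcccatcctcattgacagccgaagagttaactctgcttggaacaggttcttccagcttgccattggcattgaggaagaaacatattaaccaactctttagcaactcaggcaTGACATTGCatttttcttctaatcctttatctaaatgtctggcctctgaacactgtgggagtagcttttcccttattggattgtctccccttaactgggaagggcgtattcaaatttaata
Mgst2: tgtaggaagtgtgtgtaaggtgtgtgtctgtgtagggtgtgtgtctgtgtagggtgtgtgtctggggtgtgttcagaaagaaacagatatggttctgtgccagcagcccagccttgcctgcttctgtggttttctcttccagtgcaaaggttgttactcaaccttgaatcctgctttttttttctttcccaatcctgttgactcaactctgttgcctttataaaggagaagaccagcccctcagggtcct

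The libraries held 18500690 to 29204212 counts on genes, so that 3 counts, the limit a count of 0 allows, corresponded to 0.103 to 0.162 CPM. Libraries had been amplified without molecular identifiers, so that limits and intervals cover counting error only. Nes, the gene behind the gate, averaged 44.5 ± 8.19 CPM in cortex GFP-positive libraries and 6.40 ± 1.57 in cortex GFP-negative libraries (SD, n = 3 each), and 109 ± 60.2 CPM in medulla GFP-positive libraries (n = 3) and 21.1 ± 7.08 in medulla GFP-negative libraries (n = 2). Of the marker lists, all 7 steroidogenic genes were detected in every group, with sums of 59135 to 65440 CPM in cortex GFP-positive, 33379 to 38103 in cortex GFP-negative, 20574 to 35738 in medulla GFP-positive and 7812 to 14880 in medulla GFP-negative libraries. Libraries labelled medulla therefore held steroidogenic as well as chromaffin transcripts. The 6 chromaffin genes summed to 4973 to 9011 CPM in GFP-positive and 4887 to 7631 CPM in GFP-negative medulla libraries. These lists differ in number and length of genes, so their sums do not rank the cell types. The chromaffin sum was at most 93.0 CPM in cortex GFP-positive libraries and at most 0.236 CPM in cortex GFP-negative libraries, where Dbh, Chgb and Pnmt were at 0. The 7 macrophage genes summed to 35.2 to 152 CPM in cortex GFP-positive and 1767 to 2804 in cortex GFP-negative libraries, and to 170.0 to 419.6 CPM in medulla GFP-positive and 8898 to 9189 in medulla GFP-negative libraries. The 3 zona glomerulosa genes ran the same way, at 768 to 813 CPM in GFP-positive and 4323 to 5381 CPM in GFP-negative cortex libraries, and at 32.4 to 95.3 CPM in GFP-positive and 1721 to 2847 CPM in GFP-negative medulla libraries. The 6 Schwann and glial genes ran the other way, at 191 to 216 CPM in GFP-positive and 2.95 to 10.7 CPM in GFP-negative cortex libraries, and at 1532 to 3493 CPM in GFP-positive and 13.6 to 22.4 CPM in GFP-negative medulla libraries, where Sox10 was at 0. The 6 pericyte and smooth muscle genes summed to 55.1 to 215 CPM in cortex GFP-positive and 1.46 to 5.07 in cortex GFP-negative libraries, and to 99.6 to 244 CPM in medulla GFP-positive and 126 and 143 CPM in medulla GFP-negative libraries. The 4 fibroblast genes summed to 18.6 to 62.8 CPM in cortex GFP-positive and 1.16 to 8.22 in cortex GFP-negative libraries, and to 5.42 to 30.2 CPM in medulla GFP-positive and 46.8 and 55.3 CPM in medulla GFP-negative libraries. The 6 endothelial genes overlapped between the gates of each tissue, at 51.0 to 771 CPM over all libraries, and the 5 erythroid genes reached 812 CPM in cortex GFP-positive library 1 and at most 1.86 CPM elsewhere. Several marker sums thus differed between the gates in both tissues, and their part in the gene differences below was not tested.

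Together the 33 genes took 5486 ± 247 CPM in cortex GFP-positive and 3834 ± 447 in cortex GFP-negative libraries, and 3658 ± 494 CPM in medulla GFP-positive and 2728 ± 319 in medulla GFP-negative libraries (SD, n = 3, 3, 3 and 2). Per kilobase of transcript, so that genes could be set side by side, the mu-class transferase Gstm1 led in GFP-positive cells, at 1084 CPM per kb in the cortex and 367 in the medulla. It made up 31.3% of the summed level per kilobase of the 33 genes in the cortex GFP-positive group. The microsomal transferase Mgst1 came next there, at 453 CPM per kb in the cortex and 366 in the medulla. In GFP-negative cells the hydrogen peroxide reducing peroxidase Gpx1 led, at 501 CPM per kb in the cortex and 732 in the medulla, where it made up 41.1% of the sum. In the cortex GFP-negative group Gstm1, at 461 CPM per kb, stood close behind it. The heat map of all 33 genes shows these few strongly expressed genes beside a broad middle group and 4 low genes, Gsta1, Gstm3, Gsto2 and Gstp3, which did not average 10 CPM in any group.

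**Figure D1:**
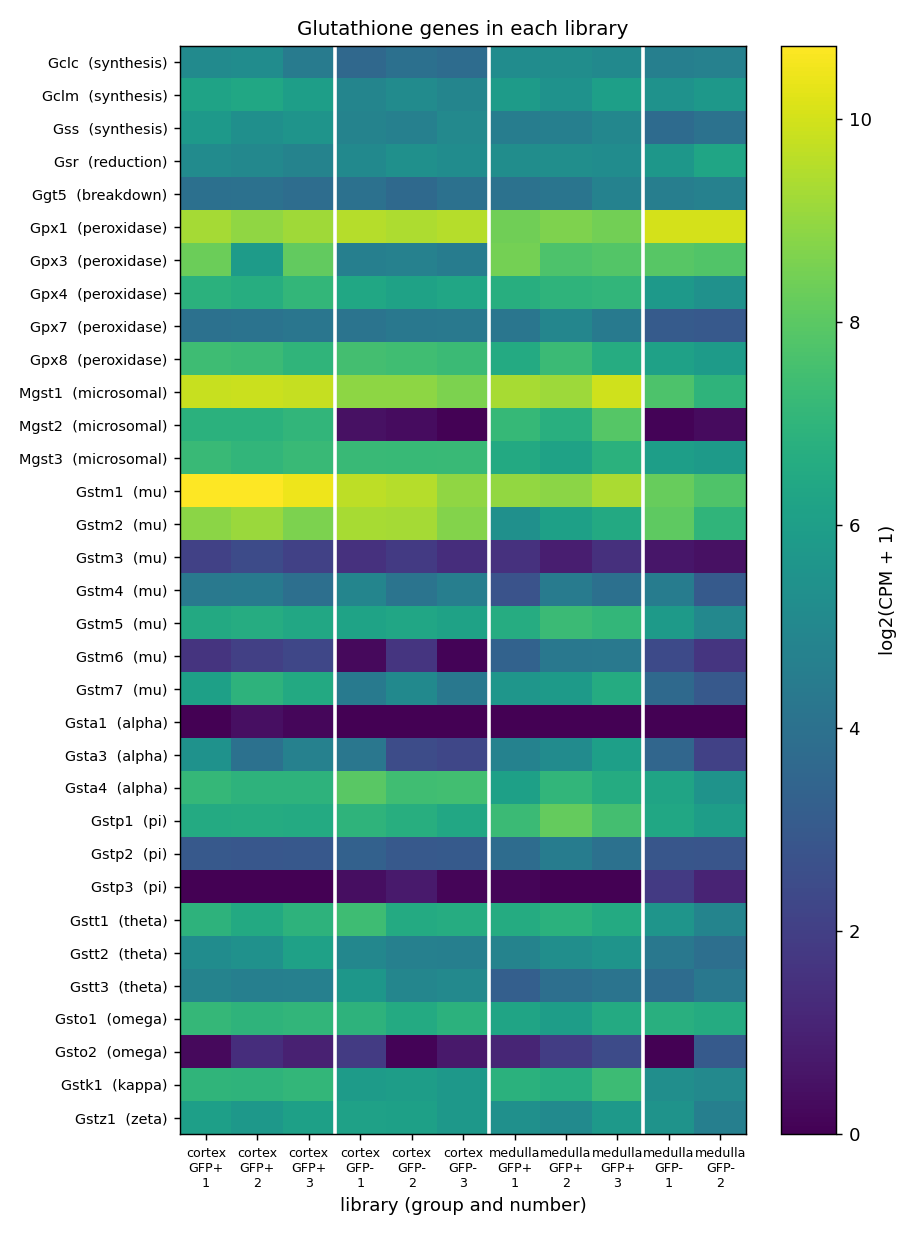
Level of each of the 33 genes in each of the 11 libraries as log2(CPM + 1), with genes down the page ordered by role and libraries across, grouped as cortex GFP-positive, cortex GFP-negative, medulla GFP-positive and medulla GFP-negative (white lines). Mgst2 stands out as present in all 6 GFP-positive and nearly absent from all 5 GFP-negative libraries, and Gstm2 is lowest in the 3 medulla GFP-positive libraries.

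The first comparison asked which of these genes differ between GFP-positive and GFP-negative cells of the cortex. In edgeR's quasi-likelihood test, with p-values adjusted over 20893 genes, 11 of 32 tested genes were higher and 1 lower in GFP-positive cells at an adjusted p under 0.05, where 7.14% of all genes tested were called higher and 7.59% lower. The higher genes were those of glutathione synthesis (Gclc, Gclm and Gss), Gpx3, Gpx4, Mgst1, Mgst2, Gstm1, Gstm7, Gstk1 and Gstt2, and the lower one was Gstp3. The same question in the medulla gave 16 genes higher and 4 lower, where 10.2% of all genes were called higher and 11.1% lower. The genes lower there were Gpx1, Gsr, Gstm2 and Gstp3. The median log2 change of the 32 genes was 0.16 in the cortex and 0.88 in the medulla, against 0.03 and 0.09 for all genes tested. Gstp3, which has almost no counts in GFP-positive cells, lies under the median also at its bound. Of the genes called, 9 were called in both gates, all in the same direction: Gpx4, Gss, Gstk1, Gstm1, Gstm7, Gstp3, Gstt2, Mgst1 and Mgst2. The share of all genes tested that were called in both gates was not counted, so these 9 have no background beside them. In bulk RNA of sorted cells, fewer cells of a type and less RNA of a gene per cell cannot be told apart. The medulla count fell without either GFP-negative library, as did the calls over all genes tested, and the group has only these. With age as a term in the model the medulla count was 13, and 3556 of all genes tested were called, against 4461 without it. The calls lost were those of Gpx8 (adjusted p = 0.0588), Gsta3 (0.0902), Mgst3 (0.0885), Gss (0.0670), Gsr (0.0740), Gstt2 (0.0867) and Gstp3 (0.0597). Fitted on the 2 medulla groups alone, the count on the 32 genes was 16, and that over all genes 3268. It was without Gpx8 (0.102), Mgst3 (0.161), Gss (0.0929), Gsr (0.0636) and Gstt2 (0.0506) and with Gstm6 (0.0351).

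**Figure D2:**
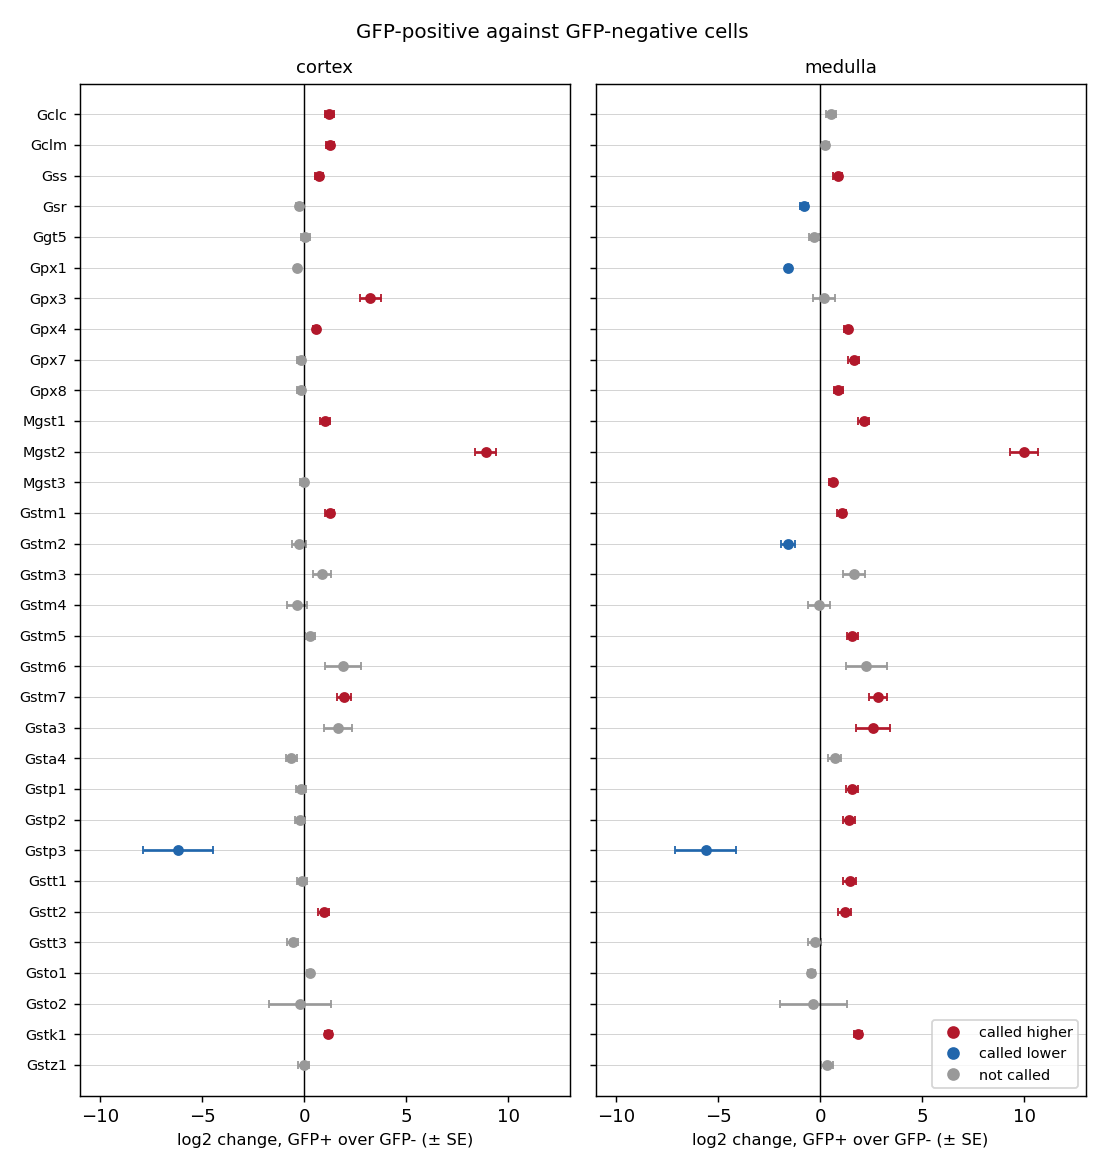
Log2 change of 32 genes in GFP-positive over GFP-negative cells, with its approximate SE, in the cortex (left panel) and the medulla (right panel), coloured by call at an adjusted p under 0.05. Mgst2 lies far to the right in both, at 8.88 and 10.00, while Gpx1, Gsr and Gstm2 are called lower in the medulla alone; the values for Gstp3 rest on libraries at or near 0 counts and are no measure of its size.

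Glutathione synthesis genes were higher in GFP-positive cells of the cortex. Gclc, the catalytic subunit of glutamate-cysteine ligase, had 34.2, 35.9 and 20.8 CPM in the 3 cortex GFP-positive libraries, against 11.4, 14.5 and 12.9 CPM in the 3 cortex GFP-negative libraries. In the medulla it had 36.5, 36.9 and 33.5 CPM in GFP-positive and 23.4 and 25.3 CPM in GFP-negative libraries. All GFP-positive values lay above the GFP-negative values of the same tissue, although cortex GFP-positive library 3 was well under the other two. The log2 change was 1.23 ± 0.21 in the cortex (SE, adjusted p = 0.00419) and 0.55 ± 0.24 in the medulla (adjusted p = 0.134). Gclm, the modifier subunit, had 73.5, 83.2 and 62.6 CPM in cortex GFP-positive libraries, against 28.4, 34.7 and 28.6 CPM in cortex GFP-negative libraries. It had 58.1, 43.7 and 64.6 CPM in medulla GFP-positive libraries, against 42.9 and 51.3 CPM in medulla GFP-negative libraries. Its groups were apart in the cortex and overlapped in the medulla. GFP-positive cells differed by a log2 change of 1.26 ± 0.18 in the cortex (adjusted p = 0.00171) and 0.24 ± 0.20 in the medulla (adjusted p = 0.464). For neither subunit was the difference between the tissues called, with an interaction of 0.68 ± 0.32 for Gclc (adjusted p = 0.316) and 1.02 ± 0.27 for Gclm (adjusted p = 0.0938). For Gclm, DESeq2 gave the interaction an adjusted p of 0.0153.

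Gss, glutathione synthetase, had 54.2, 39.1 and 45.8 CPM in cortex GFP-positive libraries, against 27.0, 24.7 and 31.9 CPM in cortex GFP-negative libraries. It had 22.1, 24.1 and 30.4 CPM in medulla GFP-positive libraries, against 12.4 and 15.4 CPM in medulla GFP-negative libraries. It was thus higher by GFP and by cortex at the same time, with no overlap between the gates of a tissue. On the log2 scale the change was 0.73 ± 0.19 in the cortex (adjusted p = 0.0300) and 0.87 ± 0.22 in the medulla (adjusted p = 0.0190). The cortex call was lost without GFP-positive library 1 or 3 or GFP-negative library 1 or 2 (adjusted p of 0.0683 to 0.113) and when scaled by total counts (0.0662). The medulla call was lost without GFP-positive library 3 or GFP-negative library 1 (0.0531 to 0.122), with age as a term (0.0670) and on the medulla groups alone (0.0929). The reductase Gsr, which regenerates glutathione, had 37.5, 38.6 and 36.0 CPM in medulla GFP-positive libraries, against 50.7 and 77.8 CPM in medulla GFP-negative libraries. It fell by 0.78 ± 0.20 on the log2 scale in medulla GFP-positive cells (adjusted p = 0.0208), a call lost without medulla GFP-positive library 1 or 3 or GFP-negative library 2 (0.0504 to 0.213), with age as a term (0.0740) and on the medulla groups alone (0.0636). In the cortex it had 35.6, 30.8 and 26.6 CPM in GFP-positive and 32.8, 41.0 and 36.3 CPM in GFP-negative libraries, which overlapped (log2 change of -0.24 ± 0.19, adjusted p = 0.417). Ggt5, a surface enzyme that cleaves glutathione and its conjugate leukotriene C4, stayed low, at 13.4 to 15.2 CPM in cortex GFP-positive and 11.8 to 15.0 CPM in cortex GFP-negative libraries. It had 15.5 to 25.9 CPM in medulla GFP-positive and 22.9 and 25.4 CPM in medulla GFP-negative libraries and was called in neither gate (adjusted p of 0.920 and 0.429).

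The peroxidases moved in different directions. Gpx1, the cytosolic enzyme that reduces hydrogen peroxide, had 334, 397 and 348 CPM in medulla GFP-positive libraries, against 1047 and 1061 CPM in medulla GFP-negative libraries. In the cortex it had 618, 486 and 589.8 CPM in GFP-positive and 741, 678 and 748 CPM in GFP-negative libraries. Every GFP-positive library lay under every GFP-negative library of its tissue. It fell by 1.55 ± 0.13 on the log2 scale in medulla GFP-positive cells (adjusted p = 6.87e-05), a 2.93-fold difference. In the cortex the log2 change was -0.36 ± 0.12 (adjusted p = 0.0747), and it was called by DESeq2 (adjusted p = 0.0193), by limma voom (0.0361) and when scaled by total counts (0.0390). The macrophage sum given above, 170.0 to 419.6 CPM in GFP-positive and 8898 to 9189 CPM in GFP-negative medulla libraries, moved with Gpx1, and its part in the result was not tested. Gpx3, the secreted plasma peroxidase, had 319, 58.9 and 284 CPM in cortex GFP-positive libraries, against 23.5, 25.2 and 21.8 CPM in cortex GFP-negative libraries. It had 353, 214 and 228 CPM in medulla GFP-positive libraries, against 241 and 224 CPM in medulla GFP-negative libraries. Of the 4 groups, 3 therefore stood at a like level, the cortex GFP-negative group stood far under them, and cortex GFP-positive library 2 lay between. The pericyte and smooth muscle sum was low in the cortex GFP-negative group alone, at 1.46 to 5.07 CPM. In cortex GFP-positive libraries 1, 2 and 3 it was 55.1, 215 and 118 CPM. In medulla GFP-negative libraries the sum was mostly Rgs5, at a mean of 128 CPM. Kcnj8 (2.76 CPM) and Pdgfrb (2.48) were also higher there than in cortex GFP-negative libraries (0.392 and 0.271). Acta2, Notch3 and Myh11 were about as low in both, at 0.518, 0.313 and 0.364 against 0.439, 0.698 and 0.262 CPM. The fibroblast sum was 48.5, 18.6 and 62.8 CPM in cortex GFP-positive libraries 1, 2 and 3 and 1.16 to 8.22 CPM in cortex GFP-negative libraries. It was 5.42 to 30.2 CPM in medulla GFP-positive and 46.8 and 55.3 CPM in medulla GFP-negative libraries. The part of these sums in the result was not tested. The log2 change of Gpx3 was 3.23 ± 0.51 in the cortex (9.38-fold, adjusted p = 0.00264) and 0.19 ± 0.53 in the medulla (adjusted p = 0.841). The difference between these changes was not called (3.04 ± 0.71, adjusted p = 0.0659), but was without cortex GFP-positive library 2 (adjusted p = 0.00673). It was also called by DESeq2 (0.000323) and with no filter on low counts (0.0204).

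Gpx4, which reduces lipid peroxides in membranes and restrains ferroptosis, had 115, 100.3 and 136 CPM in cortex GFP-positive libraries, against 83.9, 70.8 and 81.2 CPM in cortex GFP-negative libraries. It had 106, 125 and 134 CPM in medulla GFP-positive libraries, against 53.1 and 42.2 CPM in medulla GFP-negative libraries. The gates did not overlap in either tissue. GFP-positive cells differed by a log2 change of 0.57 ± 0.16 in the cortex (adjusted p = 0.0366) and 1.35 ± 0.19 in the medulla (adjusted p = 0.000764). The cortex call was lost without GFP-positive library 1 or 3 or any 1 GFP-negative library (adjusted p of 0.0694 to 0.118), when scaled by total counts (0.0753) and with no filter on low counts (0.0513). Of the 50-base stretches of Gpx4 transcripts, 34.7% also occur in the pseudogene Gpx4-ps2, so its counts could be split between them. Gpx7, a peroxidase of the endoplasmic reticulum that works in protein folding, had 17.7, 29.4 and 20.4 CPM in medulla GFP-positive libraries, against 7.45 and 7.03 CPM in medulla GFP-negative libraries. In the cortex it had 15.2 to 17.4 CPM in GFP-positive and 16.4 to 19.3 CPM in GFP-negative libraries. It was higher in medulla GFP-positive cells by 1.64 ± 0.25 on the log2 scale (adjusted p = 0.00148) and not called in the cortex (-0.16 ± 0.21, adjusted p = 0.676). Gpx8, its membrane-bound relative in the same compartment, had 93.3, 159.5 and 99.9 CPM in medulla GFP-positive libraries, against 69.5 and 57.8 CPM in medulla GFP-negative libraries. Its log2 change was 0.89 ± 0.23 there (adjusted p = 0.0217), a call lost without either GFP-negative library (0.0530 to 0.142), with age as a term (0.0588) and on the medulla groups alone (0.102). In the cortex the change was -0.17 ± 0.20 (adjusted p = 0.633), and Gpx8 had 129.6 to 168 CPM in GFP-positive and 157 to 180.2 CPM in GFP-negative libraries.

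Among the microsomal transferases, small membrane proteins that join glutathione to lipid substrates, Mgst2 separated the gates completely. Mgst2 can make leukotriene C4 outside blood cells. It had 115, 115 and 130.4 CPM in cortex GFP-positive libraries, against 0.411, 0.294 and 0.0394 CPM in cortex GFP-negative libraries. It had 144, 107 and 239 CPM in medulla GFP-positive libraries, against 0.0731 and 0.244 CPM in medulla GFP-negative libraries. In whole counts, these were 8166 in cortex GFP-positive and 20 in cortex GFP-negative libraries, and 10440 in medulla GFP-positive and 8 in medulla GFP-negative libraries. On the log2 scale the change was 8.88 ± 0.53 in the cortex (469.7-fold, adjusted p = 3.8e-05) and 10.00 ± 0.68 in the medulla (1022-fold, adjusted p = 3.15e-05). Both calls remained in every alternative and without any 1 library. Mgst2 spans chr3:51660360-51682677 in the mouse build mm10. The methyltransferase gene Setd7, 99.5 kb before it, was higher in GFP-positive cells by 0.93 ± 0.27 on the log2 scale in the cortex (adjusted p = 0.0408) and by 1.16 ± 0.30 in the medulla (adjusted p = 0.0214). Maml3, a Notch coactivator gene 3.23 kb after it, was called in neither gate, at 2.36 to 9.88 CPM in GFP-positive and 3.43 to 10.7 CPM in GFP-negative cortex libraries, and 8.98 to 11.5 CPM in GFP-positive and 13.4 and 17.1 CPM in GFP-negative medulla libraries.

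Mgst1, the most abundant of the 3, protects membranes of the endoplasmic reticulum and mitochondria. It had 916, 933 and 888 CPM in cortex GFP-positive libraries, against 482, 476 and 388 CPM in cortex GFP-negative libraries. It had 646, 565 and 998 CPM in medulla GFP-positive libraries, against 212 and 125 CPM in medulla GFP-negative libraries. No GFP-positive library of either tissue came as low as any GFP-negative library. The log2 change was 1.02 ± 0.24 in the cortex (adjusted p = 0.0168), a call lost without GFP-negative library 3 (adjusted p = 0.0697), and 2.13 ± 0.29 in the medulla (adjusted p = 0.000665). The steroidogenic marker sum was also higher in GFP-positive libraries of both tissues, at 59135 to 65440 against 33379 to 38103 CPM in the cortex and 20574 to 35738 against 7812 to 14880 CPM in the medulla, and its part in the result was not tested. Of its 7 genes, Star, Cyp11a1, Cyp11b1 and Hsd3b1 had higher means in GFP-positive cells of both tissues. Mc2r ran the other way, at 226 ± 36.4 CPM in GFP-positive and 492 ± 42.2 in GFP-negative cortex libraries (SD, n = 3 each) and 54.1 ± 12.4 CPM in GFP-positive (n = 3) and 197 ± 73.1 in GFP-negative medulla libraries (n = 2), while Cyp21a1 and Nr5a1 overlapped between the gates of both tissues. Mgst3 had 152, 134 and 154 CPM in cortex GFP-positive and 152, 147 and 152 CPM in cortex GFP-negative libraries. It had 89.7, 72.3 and 113 CPM in medulla GFP-positive libraries, against 62.9 and 56.5 CPM in medulla GFP-negative libraries. Its levels overlapped in the cortex (log2 change of -0.04 ± 0.16, adjusted p = 0.919) and were apart in the medulla (0.62 ± 0.18, adjusted p = 0.0326). The medulla call was lost without cortex GFP-positive library 1 or 2, cortex GFP-negative library 1, medulla GFP-positive library 1 or 3, or either medulla GFP-negative library (adjusted p of 0.0598 to 0.166), with age as a term (0.0885) and on the medulla groups alone (0.161).

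**Figure D3:**
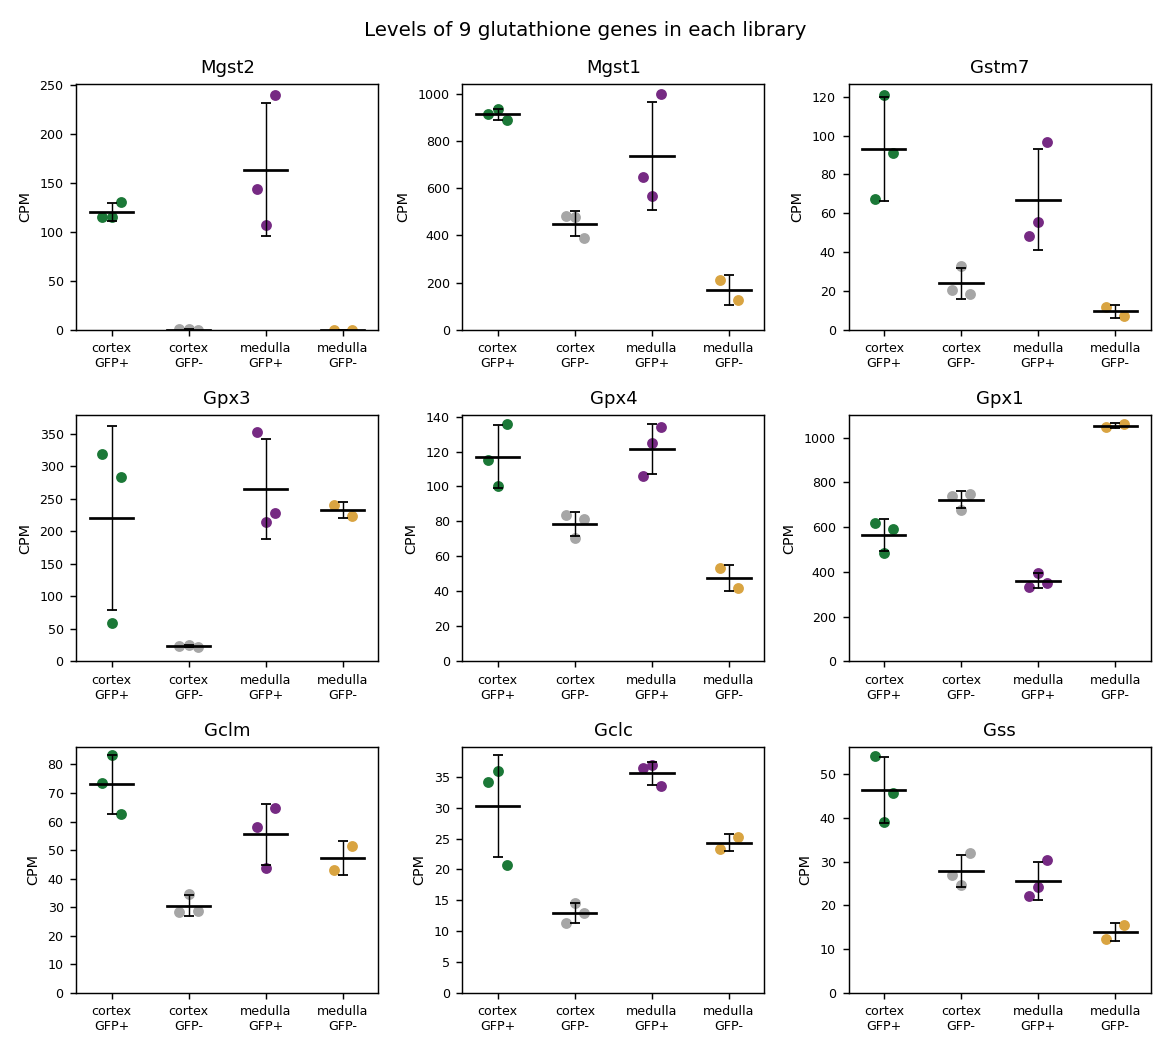
CPM of 9 genes in each library (points) with the group mean (bar) and SD (whisker), with cortex GFP-positive, cortex GFP-negative, medulla GFP-positive and medulla GFP-negative libraries from left to right. Mgst2 is at 107 to 239 CPM in all GFP-positive and at most 0.411 CPM in GFP-negative libraries, Gpx1 is under the GFP-negative libraries in every GFP-positive library of the same tissue, and Gpx3 is low in the cortex GFP-negative libraries.

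The mu class conjugates a wide range of electrophiles, and its 7 genes lie side by side on chromosome 3. Gstm1, the most abundant, had 1688, 1690 and 1413 CPM in cortex GFP-positive libraries, against 809, 732 and 494 CPM in cortex GFP-negative libraries. It had 501, 463 and 659.8 CPM in medulla GFP-positive libraries, against 302 and 220.4 CPM in medulla GFP-negative libraries. The groups fell in the same order in both tissues, with no overlap between gates. GFP-positive cells differed by a log2 change of 1.24 ± 0.21 in the cortex (adjusted p = 0.00382) and 1.05 ± 0.24 in the medulla (adjusted p = 0.0117), the medulla call being lost without GFP-negative library 2 (adjusted p = 0.0984). Gstm2 had 464, 553 and 391 CPM in cortex GFP-positive libraries, against 645, 617 and 429 CPM in cortex GFP-negative libraries. It had 40.8, 67.0 and 89.9 CPM in medulla GFP-positive libraries, against 263 and 130.2 CPM in medulla GFP-negative libraries. Unlike the values of Gstm1, those of Gstm2 were lower in medulla GFP-positive cells and overlapped in the cortex. On the log2 scale the change was -1.58 ± 0.35 in the medulla (adjusted p = 0.0104), a call lost without GFP-negative library 1 (adjusted p = 0.111), and -0.26 ± 0.32 in the cortex (adjusted p = 0.632). The zona glomerulosa sum, 32.4 to 95.3 CPM in medulla GFP-positive and 1721 to 2847 CPM in medulla GFP-negative libraries, and the macrophage sum were lower in the same libraries, and their part in the result was not tested. Of the 50-base stretches of their transcripts, 18.9% in Gstm1 and 5.65% in Gstm2 occur in other genes, so some reads could be split among them.

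Gstm7 had 67.5, 121 and 91.1 CPM in cortex GFP-positive libraries, against 20.4, 32.9 and 18.4 CPM in cortex GFP-negative libraries. It had 48.4, 55.6 and 96.6 CPM in medulla GFP-positive libraries, against 11.8 and 7.07 CPM in medulla GFP-negative libraries. The gates did not overlap in either tissue. It was 3.90-fold higher in GFP-positive cells of the cortex (log2 change of 1.96 ± 0.35, adjusted p = 0.00478) and 7.09-fold higher in those of the medulla (2.83 ± 0.43, adjusted p = 0.00137). Gstm5 had 98.6, 159 and 135 CPM in medulla GFP-positive libraries, against 56.4 and 31.0 CPM in medulla GFP-negative libraries. In the cortex it had 86.2 to 97.4 CPM in GFP-positive and 71.6 to 80.8 CPM in GFP-negative libraries. It was called in the medulla (1.58 ± 0.27, adjusted p = 0.00230) and not in the cortex (0.28 ± 0.23, adjusted p = 0.456). The 3 remaining mu genes were called in neither gate. Gstm4 spanned 5.78 to 28.2 CPM over all 11 libraries and Gstm3 0.406 to 4.47 CPM. In the medulla Gstm3 was called by DESeq2 (0.0311) and when scaled by total counts (0.0441). Gstm6 ranged over 9.24 to 19.0 CPM in medulla GFP-positive libraries and 0.0788 to 4.31 CPM in the other 8. Without cortex GFP-negative library 2, where it had 2.13 CPM against 0.224 and 0.0788 CPM in libraries 1 and 3, it was called in the cortex gate (adjusted p = 0.00517) and the medulla gate (0.0194). In the medulla it was also called by limma voom (0.0173) and on the medulla groups alone (0.0351).

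Of the alpha class, which detoxifies lipid peroxidation products and whose human member GSTA3 is known for a steroid isomerase activity, Gsta3 had 26.2, 35.2 and 66.1 CPM in medulla GFP-positive libraries, against 10.6 and 3.25 CPM in medulla GFP-negative libraries. In the cortex it had 42.8, 14.9 and 25.3 CPM in GFP-positive libraries, against 18.3, 4.70 and 3.86 CPM in GFP-negative libraries. The gates were apart in the medulla and overlapped in the cortex through 1 library of each gate. The log2 change was 2.61 ± 0.83 in the medulla (adjusted p = 0.0483), a call lost without any 1 library except cortex GFP-negative library 1 or 3 (adjusted p of 0.0520 to 0.239) and with age as a term (0.0902). In the cortex the change was 1.63 ± 0.68 (adjusted p = 0.141), and it was called without GFP-negative library 1 (adjusted p = 0.0325). Gsta4, which clears the lipid aldehyde 4-hydroxynonenal, had 140.3, 120.0 and 119.9 CPM in cortex GFP-positive libraries, against 249.7, 171 and 175 CPM in cortex GFP-negative libraries. It had 67.8, 131 and 95.5 CPM in medulla GFP-positive libraries, against 75.9 and 44.5 CPM in medulla GFP-negative libraries. It did not pass the test in either gate (adjusted p of 0.136 and 0.132), although the cortex groups did not overlap. On the cortex groups alone it was called in the cortex (0.0280), and DESeq2 called its interaction (0.0194). Gsta1 had 11 counts in all, in cortex GFP-positive libraries 2 and 3, was not tested, and shares 90.5% of its 50-base stretches with other genes.

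The pi class is known for binding and restraining stress kinases as well as for conjugation. Gstp1 had 158, 293 and 183 CPM in medulla GFP-positive libraries, against 82.2 and 60.9 CPM in medulla GFP-negative libraries. In the cortex it had 94.0, 95.4 and 93.3 CPM in GFP-positive libraries and 125, 104 and 84.4 CPM in GFP-negative libraries. Its highest values were thus those of the medulla GFP-positive libraries. It was 2.95-fold higher in GFP-positive cells of the medulla (log2 change of 1.56 ± 0.28, adjusted p = 0.00297) and not called in the cortex (-0.15 ± 0.23, adjusted p = 0.725). The Schwann and glial marker sum was highest in the same libraries, at 1532 to 3493 CPM against 13.6 to 22.4 CPM in medulla GFP-negative libraries, and its part in the result was not tested. Gstp2, at 12.7 to 21.8 CPM in medulla GFP-positive and 6.13 and 6.25 CPM in medulla GFP-negative libraries, ran with it (1.42 ± 0.30, adjusted p = 0.00728). Gstp2 shares 54.3% of its 50-base stretches with other genes, mostly Gstp1, so the pair was not independently counted. Gstp3, near the limit of detection, had 0 counts in the 3 cortex GFP-positive libraries, against 30 in the 3 cortex GFP-negative libraries, which is at least 9.20-fold lower when the floor of 3 counts is set over the group. It had 2 counts in medulla GFP-positive libraries, against 96 in medulla GFP-negative libraries, a ratio of 59.3 between the gates, lower in GFP-positive cells, with a 95% counting interval of 16.0 to 496. It was called lower in both (adjusted p of 0.0470 and 0.0299). The cortex call was lost without any 1 library except medulla GFP-positive library 1 or 2 (adjusted p of 0.0512 to 0.109) and by limma voom (0.0537). The medulla call was lost without medulla GFP-positive library 2 or 3 or either GFP-negative library (0.0596 to 0.135) and with age as a term (0.0597).

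Of the remaining transferases, Gstk1, the kappa-class enzyme of mitochondria and peroxisomes, had 127, 126 and 137 CPM in cortex GFP-positive libraries, against 58.9, 62.1 and 51.7 CPM in cortex GFP-negative libraries. It had 115, 102 and 164 CPM in medulla GFP-positive libraries, against 38.3 and 32.0 CPM in medulla GFP-negative libraries. The gates were far apart in both tissues. GFP-positive cells differed by a log2 change of 1.17 ± 0.18 in the cortex (adjusted p = 0.00207) and 1.85 ± 0.21 in the medulla (adjusted p = 0.000275). The theta gene Gstt2 had 36.6, 42.4 and 70.3 CPM in cortex GFP-positive libraries, against 30.3, 24.2 and 23.4 CPM in cortex GFP-negative libraries. It had 26.9, 38.6 and 46.5 CPM in medulla GFP-positive libraries, against 18.4 and 13.9 CPM in medulla GFP-negative libraries. Although no libraries overlapped, the calls were marginal, with an adjusted p of 0.0493 in the cortex and 0.0241 in the medulla. The cortex call was lost without cortex GFP-positive library 2 or 3, any 1 cortex GFP-negative library, medulla GFP-positive library 2 or either medulla GFP-negative library (0.0569 to 0.162), with RLE scaling (0.0504) and when scaled by total counts (0.0723). The medulla call was lost without medulla GFP-positive library 3 or either GFP-negative library (0.0578 to 0.156), with age as a term (0.0867) and on the medulla groups alone (0.0506). Gstt1, its neighbour, which acts on small halogenated compounds, had 97.1, 114 and 94.0 CPM in medulla GFP-positive libraries, against 47.4 and 27.2 CPM in medulla GFP-negative libraries. It was called in the medulla (1.45 ± 0.31, adjusted p = 0.00776), but not without GFP-negative library 2 (adjusted p = 0.0674). In the cortex Gstt1 overlapped, with 91.2 to 122 CPM in GFP-positive and 92.7 to 166 CPM in GFP-negative libraries (adjusted p = 0.836). Gstt3, the omega genes Gsto1 and Gsto2, and Gstz1, the zeta enzyme of tyrosine breakdown, were called in neither gate, at an adjusted p of 0.126 and above.

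The tissue comparisons asked which genes differ between cortex and medulla within 1 gate. They share their groups with the gate comparisons and are not independent of them. In GFP-positive cells, 6 of 32 genes were higher and 2 lower in the cortex, where 6.04% of all genes tested were called higher and 9.45% lower. The higher genes were Gpx1, Gss, Gstm1, Gstm2, Gsto1 and Mgst3, and the lower ones Gstp1 and Gstp2. In GFP-negative cells, 14 genes were higher and 5 lower in the cortex, where 8.06% of all genes were called higher and 10.6% lower. The median log2 change was 0.22 in GFP-positive and 0.70 in GFP-negative cells, against -0.03 and -0.02 for all genes tested. The count in GFP-negative cells was 10 of 32 without cortex GFP-negative library 1, against 19 with all libraries. Over all genes tested it was 2141, against 3892. Both counts fell further without medulla GFP-negative library 2, which leaves 1 library in that group. Gpx1, Gss, Gstm1, Gstm2 and Mgst3 were called in both tissue comparisons, Gpx1 in opposite directions. The share of all genes called in both was not counted.

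**Figure D4:**
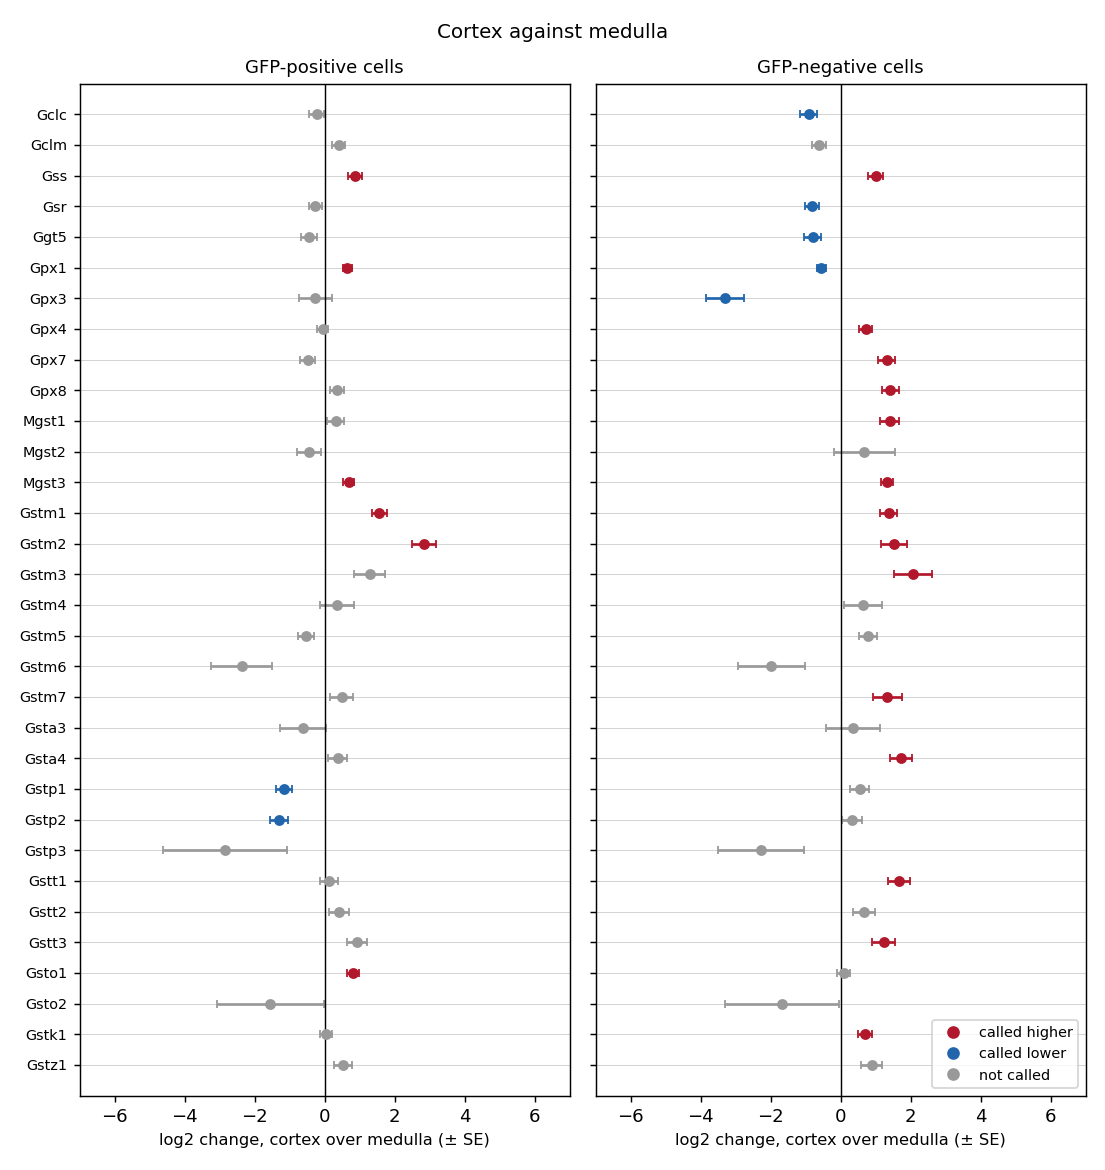
Log2 change of 32 genes in cortex over medulla, with its approximate SE, in GFP-positive cells (left panel) and GFP-negative cells (right panel), coloured by call at an adjusted p under 0.05. Gstm1, Gstm2, Mgst3 and Gss are called higher in the cortex in both panels, and Gpx1 is called higher in the left and lower in the right panel.

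The mu-class genes Gstm1 and Gstm2 were higher in the cortex than in the medulla in both gates. With them, the 7 mu genes summed to 2275 ± 248 CPM in cortex GFP-positive and 836 ± 162 CPM in medulla GFP-positive libraries (SD, n = 3 each), and to 1367 ± 289 CPM in cortex GFP-negative (n = 3) and 529 ± 185 CPM in medulla GFP-negative libraries (n = 2). Gstm2 was 7.12-fold higher in the cortex in GFP-positive cells (log2 change of 2.83 ± 0.34, adjusted p = 0.000767), and 2.87-fold in GFP-negative cells (1.52 ± 0.38, adjusted p = 0.0203). Gstm1 was 2.95-fold higher in GFP-positive cells (1.56 ± 0.21, adjusted p = 0.00135) and 2.60-fold in GFP-negative cells (1.38 ± 0.25, adjusted p = 0.00501). For both genes every cortex GFP-positive library lay above every medulla GFP-positive library. In GFP-negative cells the Gstm1 call was lost without medulla GFP-negative library 2 (adjusted p = 0.0521), and the Gstm2 call without that library or cortex GFP-negative library 1 or 2 (0.0523 to 0.154). Gstm7 and Gstm3 were called higher in the cortex in GFP-negative cells, at 1.34 ± 0.40 (adjusted p = 0.0428) and 2.06 ± 0.54 (adjusted p = 0.0260). Both calls were lost without cortex GFP-negative library 1 or 2 or either medulla GFP-negative library, and that of Gstm7 also without cortex GFP-positive library 3 (0.0508 to 0.273 for Gstm7 and 0.0624 to 0.154 for Gstm3). The Gstm7 call was also lost by limma voom (0.0975) and with age as a term (0.0663), and that of Gstm3 with no filter on low counts (0.0736) and on the GFP-negative groups alone (0.0730). Of the other mu genes none was called between tissues. Gstm5 had 90.9 ± 5.77 CPM in cortex and 131 ± 30.2 CPM in medulla GFP-positive libraries (adjusted p = 0.152), and Gstm6 had 3.02 ± 0.913 CPM in cortex and 15.6 ± 5.53 CPM in medulla GFP-positive libraries (adjusted p = 0.0981, SD, n = 3 each). The Gstm6 difference was called by DESeq2 (0.0226), by limma voom (0.0120) and on the GFP-positive groups alone (0.00925).

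Mgst3 averaged 147 ± 11.3 CPM in cortex and 91.7 ± 20.5 CPM in medulla GFP-positive libraries (SD, n = 3 each), a log2 change of 0.68 ± 0.16 (adjusted p = 0.0170). In GFP-negative cells the change was 1.33 ± 0.18 (adjusted p = 0.00164), with 150.3 ± 2.48 CPM in cortex (n = 3) and 59.7 ± 4.55 CPM in medulla libraries (n = 2). Its cortex libraries lay above its medulla libraries in either gate. The call in GFP-positive cells was lost without cortex GFP-positive library 1 or 3 or medulla GFP-positive library 1 (0.0519 to 0.0607) and on the GFP-positive groups alone (0.0509). Mgst1 was called in GFP-negative cells alone (1.41 ± 0.28, adjusted p = 0.00752), and not without medulla GFP-negative library 2 (adjusted p = 0.0633). Mgst2 was called in neither tissue comparison. Gss was higher in the cortex by 0.86 ± 0.19 on the log2 scale in GFP-positive cells (adjusted p = 0.0149), a call lost without cortex GFP-positive library 1 or medulla GFP-positive library 1 or 2 (0.0520 to 0.0638). It was higher by 1.00 ± 0.22 in GFP-negative cells (adjusted p = 0.0131), a call lost without medulla GFP-negative library 1 (adjusted p = 0.0715). Gsto1, an omega-class enzyme that reduces dehydroascorbate and methylated arsenic, had 142, 126 and 132 CPM in cortex GFP-positive libraries, against 75.1, 62.5 and 92.5 CPM in medulla GFP-positive libraries. It was 1.74-fold higher there (0.80 ± 0.17, adjusted p = 0.0101). In GFP-negative cells Gsto1 overlapped, with 120.2, 91.8 and 118 CPM in cortex and 109 and 96.8 CPM in medulla libraries (adjusted p = 0.779).

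Genes lower in the cortex were fewer. Gpx3 had 21.8 to 25.2 CPM in the 3 cortex GFP-negative libraries, against 224 and 241 CPM in the 2 medulla GFP-negative libraries, a log2 change of -3.30 ± 0.54 (adjusted p = 0.00348). It was not called between tissues in GFP-positive cells (-0.27 ± 0.47, adjusted p = 0.774). Gpx1 fell by 0.55 ± 0.13 on the log2 scale in cortex GFP-negative cells (adjusted p = 0.0187), a call lost without cortex GFP-negative library 2 or medulla GFP-negative library 2 (0.0651 to 0.0880). In GFP-positive cells it was higher in the cortex by 0.65 ± 0.12 (adjusted p = 0.00599). The macrophage sum was 35.2 to 152 CPM in cortex and 170.0 to 419.6 CPM in medulla GFP-positive libraries, and 1767 to 2804 CPM in cortex and 8898 to 9189 CPM in medulla GFP-negative libraries, and its part in these results was not tested. Gclc (-0.91 ± 0.23, adjusted p = 0.0233), Gsr (-0.81 ± 0.20, adjusted p = 0.0216) and Ggt5 (-0.80 ± 0.24, adjusted p = 0.0452) were lower in the cortex in GFP-negative cells alone. The calls of Gclc and Gsr were lost without cortex GFP-negative library 1 or 3 or medulla GFP-negative library 2, and that of Gclc also without medulla GFP-negative library 1 (0.0549 to 0.127 for Gclc and 0.0571 to 0.237 for Gsr). That of Ggt5 was lost without cortex GFP-positive library 1 or 3 or any 1 GFP-negative library (0.0518 to 0.211), when scaled by total counts (0.0705), with no filter on low counts (0.0957) and with age as a term (0.0501). Gstp1 fell by 1.17 ± 0.24 on the log2 scale in cortex GFP-positive cells relative to the medulla (adjusted p = 0.00919) and Gstp2 by 1.30 ± 0.26 (adjusted p = 0.00820), while neither was called in GFP-negative cells (adjusted p of 0.179 and 0.469).

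The other genes higher in the cortex in GFP-negative cells were Gpx4, Gpx7, Gpx8, Gsta4, Gstk1, Gstt1 and Gstt3, with log2 changes of 0.71 for Gstk1 to 1.72 for Gsta4. Gsta4 had the largest of these, with 199 ± 44.4 CPM in cortex and 60.2 ± 22.2 CPM in medulla GFP-negative libraries (SD, n = 3 and 2, 3.30-fold, adjusted p = 0.00607). Gstt3 had 37.0 ± 10.8 CPM in cortex and 15.8 ± 4.23 CPM in medulla GFP-negative libraries (1.23 ± 0.33, adjusted p = 0.0273). In GFP-positive libraries Gstt3 had 24.9 ± 1.68 CPM in the cortex and 13.2 ± 4.09 CPM in the medulla (SD, n = 3 each). None of the 7 was called between tissues in GFP-positive cells, at an adjusted p of 0.0548 for Gstt3 and above for the others. Of the 7, Gpx8 alone kept its call in GFP-negative cells without any 1 library (1.42 ± 0.24, adjusted p = 0.00390). Without medulla GFP-negative library 2 the calls of Gpx7 (adjusted p = 0.0562), Gsta4 (0.0583) and Gstt1 (0.0553) were lost. That of Gpx4 was lost without that library or cortex GFP-negative library 1 or 3 (0.0549 to 0.167), and that of Gstt3 without it, cortex GFP-negative library 1 or medulla GFP-negative library 1 (0.0692 to 0.139). The Gstk1 call was lost without cortex GFP-positive library 1 or 2, cortex GFP-negative library 1 or 2 or either medulla GFP-negative library (0.0536 to 0.216) and with age as a term (0.0564). Gstm4, Gstm6, Gsto2 and Gstz1 were called in no comparison of edgeR's test over all libraries. In GFP-negative cells Gstz1 was called higher in the cortex by DESeq2 (0.0258), by limma voom (0.0313) and when scaled by total counts (0.0359). Gstz1 had 50.9 to 67.6 CPM in cortex GFP-positive and 51.3 to 69.7 CPM in cortex GFP-negative libraries, and 34.3 to 53.2 CPM in medulla GFP-positive and 23.4 and 44.4 CPM in medulla GFP-negative libraries.

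**Figure D5:**
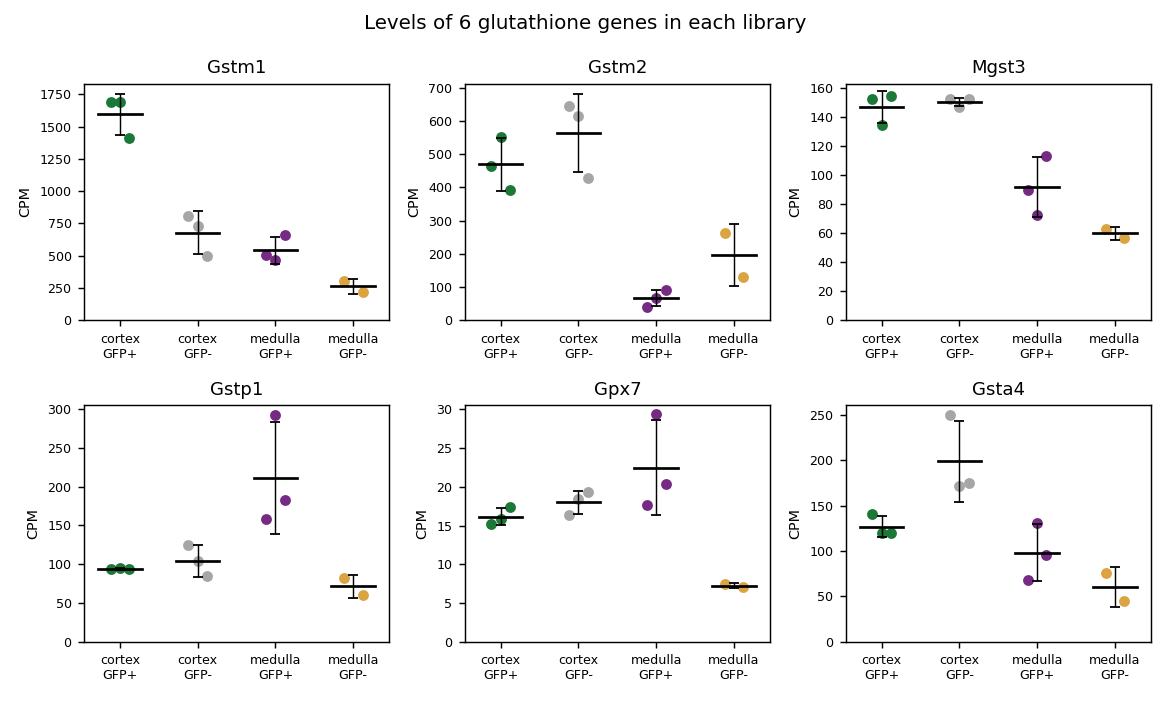
CPM of 6 genes in each library (points) with the group mean (bar) and SD (whisker), with cortex GFP-positive, cortex GFP-negative, medulla GFP-positive and medulla GFP-negative libraries from left to right. Gstm1, Gstm2 and Mgst3 are higher in the cortex in both gates, while Gstp1 reaches 158 to 293 CPM in medulla GFP-positive libraries and at most 125 CPM elsewhere.

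The interaction asked whether the gate difference itself differed between the tissues, as the log2 change in the cortex minus that in the medulla. It was called for 3 of 32 genes, where 1.61% of all genes tested were called in either direction. Gpx1 differed less between the gates in the cortex (-0.36) than in the medulla (-1.55), with an interaction of 1.20 ± 0.18 (adjusted p = 0.0212). Gpx7 had an interaction of -1.79 ± 0.33 (adjusted p = 0.0305) and Gstp1 one of -1.71 ± 0.36 (adjusted p = 0.0459), both being higher in GFP-positive cells of the medulla and not called in the cortex. The count was 1 without cortex GFP-positive library 1 or 3 or cortex GFP-negative library 1 or 3, and 0 without cortex GFP-negative library 2 or medulla GFP-negative library 2. The Gpx1 call was lost without either of these last (0.0565 to 0.0603). That of Gpx7 was lost without any 1 library of the cortex groups or medulla GFP-negative group (0.0531 to 0.110), and that of Gstp1 without any of those or medulla GFP-positive library 3 (0.0512 to 0.170). Over all genes tested, 60 to 184 were called in the interaction without any 1 cortex library, against 337. In the medulla both GFP-negative libraries but only 1 of the 3 GFP-positive ones came from the older mice. With age as a term, fitted over all groups, Gpx1 kept its call and Gpx7 (0.0725) and Gstp1 (0.108) lost theirs, while over all genes tested 93 were called, against 337. DESeq2 called 12 of the 33 genes, and 1559 of all genes.

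Around these genes, 64 further genes of glutathione use and redox supply were listed, of which 62 were tested. In the cortex 12 were higher (19.4%) and 10 lower (16.1%) in GFP-positive cells, against 7.14% and 7.59% of all genes tested. In the medulla 13 of the 62 were higher and 14 lower (22.6%), where 10.2% of all genes were called higher and 11.1% lower. Of 6 genes that supply NADPH, Me1 and Idh1 were higher in GFP-positive cells of both tissues, Nnt and Idh2 were lower in both, and G6pdx and Pgd were lower in the medulla. The malic enzyme Me1 had 1814 to 2119 CPM in cortex GFP-positive and 568 to 646 CPM in cortex GFP-negative libraries (log2 change of 1.72 ± 0.25, adjusted p = 0.00173), and 729 to 1530 CPM in medulla GFP-positive and 191 to 290.0 CPM in medulla GFP-negative libraries (2.32 ± 0.30, adjusted p = 0.000560). The isocitrate dehydrogenase Idh1 rose likewise, by 1.84 ± 0.26 (adjusted p = 0.00137) and 2.28 ± 0.31 (adjusted p = 0.000682). The mitochondrial transhydrogenase Nnt had 166 to 239.9 CPM in cortex GFP-positive and 327 to 378 CPM in cortex GFP-negative libraries, and fell by 0.77 ± 0.16 on the log2 scale in the cortex (adjusted p = 0.0104) and by 0.82 ± 0.18 in the medulla (adjusted p = 0.00805). The medulla call of Nnt was lost without GFP-negative library 1 (adjusted p = 0.0554).

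Acsl4, which loads polyunsaturated fatty acids into membrane lipids and is known as a driver of ferroptosis, was higher in GFP-positive cells by 1.23 ± 0.16 on the log2 scale in the cortex (adjusted p = 0.000919) and by 1.27 ± 0.18 in the medulla (adjusted p = 0.00100). Selenop, the secreted selenium carrier on which selenium-containing peroxidases draw, had 132 to 148 CPM in cortex GFP-positive and 322 to 461 CPM in cortex GFP-negative libraries. It had 498 to 753 CPM in medulla GFP-positive and 1715 and 1949 CPM in medulla GFP-negative libraries. It was lower in GFP-positive cells of both tissues, by log2 changes of -1.44 ± 0.19 (adjusted p = 0.000897) and -1.61 ± 0.20 (adjusted p = 0.000423). The glutaredoxin Glrx (-2.10 ± 0.19, adjusted p = 0.000163) and Hpgds, a glutathione-dependent prostaglandin D synthase of blood cells (-5.89 ± 0.99, adjusted p = 0.00344), were the others with the smallest p among genes lower in GFP-positive cells of the cortex. The peptidase Lap3 (-0.96 ± 0.13, adjusted p = 0.000848) was among the 3 with the smallest p of the 14 genes lower in those of the medulla. Hpgds had 0 to 2.06 CPM in cortex GFP-positive and 26.9 to 59.4 CPM in cortex GFP-negative libraries, where the macrophage sum was 35.2 to 152 and 1767 to 2804 CPM, and its part in the result was not tested. Nfe2l2, which encodes Nrf2, had 164 to 222 CPM in cortex GFP-positive and 286 to 321 CPM in cortex GFP-negative libraries, and 143 to 177 CPM in medulla GFP-positive and 501 and 550.2 CPM in medulla GFP-negative libraries. It fell by 0.63 ± 0.14 on the log2 scale in the cortex (adjusted p = 0.0132) and by 1.71 ± 0.15 in the medulla (adjusted p = 7.89e-05). Catalase (Cat), the superoxide dismutase Sod2 and the thioredoxin reductase Txnrd1 were called in neither gate, at an adjusted p of 0.0998 and above. Slc7a11, the cystine importer, fell by 2.47 ± 0.63 on the log2 scale in the medulla (adjusted p = 0.0194), a call lost without GFP-positive library 1 or 3 or GFP-negative library 2 (0.0510 to 0.242) and on the medulla groups alone (0.0725), and was not called in the cortex (-1.31 ± 0.58, adjusted p = 0.160). Its levels were low, at 0.671 to 2.40 CPM in medulla GFP-positive and 3.87 and 13.2 CPM in medulla GFP-negative libraries.

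Between tissues, 15 of the 62 were higher (24.2%) and 5 lower (8.06%) in the cortex in GFP-positive cells, against 6.04% and 9.45% of all genes tested. In GFP-negative cells 21 were higher (33.9%) and 9 lower (14.5%), against 8.06% and 10.6% of all genes. The count in GFP-negative cells, 30 in all, was 19 without cortex GFP-negative library 1, where that over all genes was 2141, against 3892. Both counts fell further without medulla GFP-negative library 2. Sod3, the extracellular superoxide dismutase, was higher by 1.52 ± 0.18 on the log2 scale in GFP-positive cells (adjusted p = 0.000750) and 1.53 ± 0.21 in GFP-negative cells (adjusted p = 0.00164). Idh2, the mitochondrial isocitrate dehydrogenase, was higher by 1.30 ± 0.16 (adjusted p = 0.000734) and 1.08 ± 0.18 (adjusted p = 0.00360). The mitochondrial thioredoxin Txn2 was higher by 1.36 ± 0.19 in GFP-positive cells (adjusted p = 0.00156), and the peroxiredoxin Prdx2 by 0.88 ± 0.14 in GFP-negative cells (adjusted p = 0.00316). Nnt was higher in the cortex by 1.12 ± 0.16 in GFP-positive cells (adjusted p = 0.00180) and 1.06 ± 0.18 in GFP-negative cells (adjusted p = 0.00454). Sod2 was higher by 0.50 ± 0.14 (adjusted p = 0.0349) and 0.66 ± 0.16 (adjusted p = 0.0175). The Sod2 call in GFP-positive cells was lost without cortex GFP-positive library 1 or 3, cortex GFP-negative library 3 or any 1 medulla GFP-positive library (0.0533 to 0.103), when scaled by total counts (0.0609) and with no filter on low counts (0.0604). In GFP-negative cells it was lost without cortex GFP-negative library 1 or medulla GFP-negative library 2 (0.0724 to 0.142). Selenop was lower in the cortex in both, by log2 changes of -2.12 ± 0.19 (adjusted p = 0.000196) and -2.29 ± 0.20 (adjusted p = 0.000284). Glrx (-1.35 ± 0.19, adjusted p = 0.00138) and the transpeptidase relative Ggt7 (-4.59 ± 0.85, adjusted p = 0.00603) were lower in cortex GFP-positive cells, Ggt7 having 0 to 0.515 CPM there and 5.98 to 6.94 CPM in medulla GFP-positive libraries. In cortex GFP-negative cells the heme oxygenase Hmox1 (-1.50 ± 0.25, adjusted p = 0.00374) and Nfe2l2 (-0.79 ± 0.15, adjusted p = 0.00687) were lower. Nfe2l2 was not called between tissues in GFP-positive cells (adjusted p = 0.185), and Cat, Slc7a11 and Txnrd1 were called in neither comparison.

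In the authors' deposited table for the cortex gate, Mgst2 (log2 fold change of 8.59, adjusted p = 1.07e-62) and Gpx3 (3.11, adjusted p = 0.000215) were the 2 genes of the 33 with an adjusted p under 0.05. In the authors' deposited table for the medulla gate there were 5, namely Mgst2 (9.44), Gstm7 (2.73), Mgst1 (2.08), Gstk1 (1.81) and Gpx1 (-1.57). In the authors' deposited table of cortex against medulla GFP-positive cells there was 1, Gstm2 (2.73, adjusted p = 8.62e-06). Those tables hold fewer calls by construction, since in the authors' deposited tables the test statistic of all 25509 genes equals the excess of the size of the log2 fold change over 1, divided by its standard error, within 0.01.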

How the data were processed

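What the authors deposited was 1 table of raw read counts per gene in 11 libraries and 3 tables of their comparisons. Per the file headers, the latter give log2 fold changes, p-values, a test score, the GC percent of each gene, and a signal in which counts had been divided by a size factor per library. Tools named in the submitters' processing notes, with no roles given, are featureCounts 1.6.0, GSNAP 2018-03-11, bcl2fastq 2.19.1, DESeq2 1.18.1, DESeq and the build mm10. Per the labels' protocols, 180 to 300 cells per tube were lysed, cDNA was primed on the poly(A) tail, amplified over 17 cycles and cut by a transposase; the protocol uses no molecular identifiers and marks no strand. All counts came from the count table, joined on Ensembl identifiers; 92 spike-in sequences, with 10 counts in all, were left out. Libraries were scaled by trimmed mean of M values (factors 0.925 to 1.05), and CPM were computed from the counts so scaled. Low genes were removed by edgeR's filter, which left 20893 of 34475 genes with a count. One edgeR 4.0.16 quasi-likelihood model over the 4 groups (R 4.3.3, 7 residual degrees of freedom) gave the 2 gate contrasts, the 2 tissue contrasts and their interaction, with Benjamini-Hochberg adjustment over all genes tested and a call at an adjusted p under 0.05. Printed SEs are approximate: the size of a log2 change over the root of its F statistic. Libraries of a group differed by far more than sampling noise (29.1 to 104.1 as chi-square over its degrees of freedom), so each counted once. With these depths, 3 counts were 0.103 to 0.162 CPM. The model was run on simulated counts with the same dispersion for every gene and independent libraries. That run scored the cortex gate alone, so it says nothing about the medulla groups, the interaction or shared animals.

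Genes and lists were chosen with earlier results of these data known. Values are given for every gene called in a pairwise comparison that averaged at least 10 CPM in some group and for a fixed set of others, and for the 3 genes of the wider list with the smallest p in each direction plus Nnt, Cat, Sod2, Slc7a11, Nfe2l2 and Txnrd1. Alternatives were other scalings (RLE, total counts), no filter on low counts, DESeq2 1.42.0, limma voom (limma 3.58.1), age or library number as a term, only the groups compared, and leaving out each library. Shared sequence was the share of a gene's 50-base stretches found in transcripts of other genes (GENCODE M21); the read length is not given in the sources used here. Promoters came from RefSeq tables of GRCm38.p6. Protein sequences were not used here.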

Additional observations from a re-analysis of the deposited data

Results flagged for a closer look

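For 6 genes the gate difference itself differed between the tissues, at an adjusted p under 0.05 in edgeR's quasi-likelihood test of the interaction, which is the log2 change of GFP-positive over GFP-negative cells in the cortex minus the same in the medulla. Among transferases and peroxidases these were Gpx1 at 1.20 ± 0.18 (adjusted p = 0.0212), Gpx7 at -1.79 ± 0.33 (adjusted p = 0.0305) and Gstp1 at -1.71 ± 0.36 (adjusted p = 0.0459), whose libraries are given above. With age as a term Gpx1 alone of the 6 kept its call. Among the wider list they were Slc3a2, Nfe2l2 and Hmox1.

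Slc3a2, the heavy chain of the cystine and other amino acid importers, had 353 to 417 CPM in cortex GFP-positive and 219 to 266 CPM in cortex GFP-negative libraries, and 270.0 to 328 CPM in medulla GFP-positive and 381 and 384 CPM in medulla GFP-negative libraries. Its libraries were thus apart between the gates in both tissues, in opposite directions. By edgeR's test it was called higher in GFP-positive cells of the cortex and was not called in the medulla gate. Its interaction was 1.06 ± 0.19 (adjusted p = 0.0293). It was not called without cortex GFP-positive library 3, cortex GFP-negative library 2 or 3 or medulla GFP-negative library 2 (0.0510 to 0.0839) or with age as a term (0.0614). Nfe2l2 was lower in GFP-positive cells of both tissues, less so in the cortex, with an interaction of 1.09 ± 0.20 (adjusted p = 0.0336). It was not called without any 1 library except cortex GFP-positive library 3 or medulla GFP-positive library 3 (0.0540 to 0.0839), nor with age as a term (0.0900). Hmox1 had 345 to 430.2 CPM in cortex GFP-positive and 118 to 166 CPM in cortex GFP-negative libraries, while in the medulla the gates overlapped, at 252 to 418 CPM in GFP-positive and 301 and 464 CPM in GFP-negative libraries. Its interaction was 1.74 ± 0.34 (adjusted p = 0.0361), and it was not called without any 1 library except medulla GFP-positive library 1 or medulla GFP-negative library 1 (0.0559 to 0.131), nor with age as a term (0.0851) or when scaled by total counts (0.0575).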

How the results depend on the processing

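Of 62 calls on the 33 genes, 26 kept direction and call in every alternative and without any 1 library, 36 were lost in at least 1 of these and none turned sign; 25 pairs of gene and comparison not called gained a call in some alternative. Of 35 named calls on the wider list, 28 were kept, 7 were lost and none turned sign. Counts on the 33 genes moved by more than 1.5 times in the medulla gate with age as a term (13, against 20), and in the interaction with total counts (5), no filter on low counts (5), DESeq2 (12) and age as a term (1), against 3; over all genes tested DESeq2 called 1559 in the interaction, against 337. On the wider list the interaction count, 3, was 9 by DESeq2 and 0 with age as a term (over all 20893 genes tested, 93 were called with age as a term). Total counts moved the median of all genes in the interaction to -0.189, against -0.02. Number 2 stands for mice of about 2.5 months in the medulla GFP-positive group and of about 3.5 months in the other groups. It therefore does not pair that library with the others. Whether library numbers otherwise pair libraries could not be told. Deviations of same-numbered libraries correlated at -0.01 to 0.07 and those of different-numbered ones at -0.05 to 0.03. In the cortex gate and between tissues in GFP-positive cells, every same-numbered pair lay above every other pair. In the other comparisons the pairs overlapped. With library number as a replicate block, which puts both ages under number 2, the counts on the 33 genes were 10 in the cortex gate and 19 in the medulla gate. They were 8 between tissues in GFP-positive cells, 14 between tissues in GFP-negative cells and 1 in the interaction. On the wider list the interaction count was 1. Calls lost with the block were those of Gstt2 (0.0702) and Gstp3 (0.0691) in the cortex gate, Gstt2 (0.0524) and Gstp3 (0.0634) in the medulla gate, Gstm7 (0.0917), Gstt3 (0.0620), Gstm3 (0.0514), Ggt5 (0.0522) and Gstk1 (0.0654) between tissues in GFP-negative cells, and Gpx7 (0.0624), Gstp1 (0.0751), Nfe2l2 (0.0785) and Hmox1 (0.0848) in the interaction. Without 1 library at a time the counts on the 33 genes ranged over 8 to 12, 12 to 20, 6 to 9, 4 to 20 and 0 to 3 in the same order, and those on the wider list over 16 to 24, 22 to 28, 14 to 20, 14 to 32 and 0 to 5. The interaction on the wider list was 1 without cortex GFP-positive library 1, 2 or 3, cortex GFP-negative library 1 or medulla GFP-positive library 2, 0 without cortex GFP-negative library 2 or 3 or medulla GFP-negative library 2, and 5 without medulla GFP-negative library 1. Calls were gained without medulla GFP-positive library 2 by Gstm3 in the medulla gate (adjusted p = 0.0322), Gpx8 between tissues in GFP-positive cells (0.0294) and Gclm between tissues in GFP-negative cells (0.0338). Without medulla GFP-negative library 1 they were gained by Gstm5 (0.0118) and Gstz1 (0.0154) between tissues in GFP-negative cells, and by Gstm5 (0.0334) and Gstt1 (0.0481) in the interaction. Gstm5 gained one between tissues in GFP-negative cells also without medulla GFP-positive library 1 (0.0456), Gstt3 between tissues in GFP-positive cells without cortex GFP-negative library 1 (0.0471) or medulla GFP-positive library 3 (0.0469), and Gstm6 in both tissue comparisons without cortex GFP-negative library 2 (0.0123 and 0.00746). Where 1 medulla GFP-negative library was left out, the other was assumed to vary like the other groups. With 2 or 3 libraries a group and a biological coefficient of variation of 0.479 over all genes, the smallest change called among the 33 genes was that of Gpx1 between tissues in GFP-negative cells, -0.55 on the log2 scale.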
